A study of Mus musculus with 31 samples.

Results

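Mouse genes were compared by strain allele in embryonic stem cells (ESCs) that had been differentiated towards cerebral cortex for 12 days, in hybrids of C57BL/6 (B6) and JF1. The comparison rests on 4 libraries. In the 2 libraries of the BJ1 cross the B6 allele came from the mother, and in the 2 libraries of the JB6 cross it came from the father. A gene was included when it was autosomal, had 20 or more read bases in a library on average, and had its mean B6 share on the same side of 50% in both crosses. A read base is a sequenced base that lies on a known B6 and JF1 difference, so that a read can be given to 1 allele, and the B6 share is the percentage of these bases that carried the B6 letter. Of 14851 autosomal features listed at day 12, 10345 passed the floor on read bases and 7628 were included, 4251 with the B6 allele higher and 3377 with the JF1 allele higher. The other 2717 tested genes were not on the same side in both crosses.

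In a hybrid cell both alleles of a gene share the same nucleus and the same transcription factors. A hybrid is therefore used to find differences carried in cis by the alleles, and crossing both ways separates the strain of an allele from the parent it came from. B6 and JF1 are inbred strains, and JF1 derives from Japanese Mus musculus molossinus mice. Unequal allele counts can also come from the measurement, because reads from a near-identical copy of a gene, or from a strain difference that is not present in the animals used, enter the same count.

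All 4 libraries were from male ESC-derived cultures, grown in a chemically defined medium with the Hedgehog pathway inhibitor cyclopamine during an early part of the protocol. The ESCs came from hybrid blastocysts. According to the authors' readme, the B6 parent of the cultured cells was a C57BL/6 transgenic mouse with GFP under the Pou5f1 (Oct4) promoter, made on a mixed CBA and B6 background, whereas the cortex samples came from pure C57BL/6 and pure JF1 parents. Each cross was represented in culture by its own ESC line, so cross and line cannot be told apart. The other hybrid samples used below were undifferentiated ESCs (2 BJ1 and 2 JB6 libraries), cultures at day 21 (2 and 2), dorsal telencephalon at E13.5 (3 and 3) and cortex at P0 (4 BJ1 and 3 JB6). The labels do not say that the culture replicates were separate differentiations, so p-values measure only the spread between these libraries, which may be technical.

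The 2 BJ1 libraries held 5266834 and 5401166 read bases, and the 2 JB6 libraries 6465986 and 8618253. The B6 share of all autosomal read bases was 51.8% and 51.9% in BJ1 and 50.6% and 50.8% in JB6. The cortical label was checked against markers. Levels are in CPM, read bases scaled to a common library total. Pax6, a transcription factor gene of dorsal telencephalic and other neural progenitors, was at 3.4 to 10.3 CPM at day 12, against 1.93 to 8.73 CPM in ESCs. Vim, an intermediate filament gene of neural progenitors and of many other cells, was at 1189 to 2328 CPM, against 269 to 380 CPM in ESCs. Nanog, a pluripotency factor, was at 0 to 1.33 CPM, against 121 to 200 CPM in ESCs. A list of markers of non-neural cells summed to 4866 to 6805 CPM, against 476 to 1608 CPM in ESCs. The list of dorsal telencephalic progenitor markers summed to 1719 to 2888 CPM, against 677 to 813 CPM in ESCs. Vim belongs to that list and was a large part of its sum, so the sum is no separate evidence for the cortical label. Sox2, also on it, was at 45.6 to 76.5 CPM at day 12, against 144 to 256 CPM in ESCs. Nanog was thus near 0 in every day 12 library and both lists were above their ESC range. The range of Pax6 overlapped that of ESCs, and Sox2 was below its ESC range. The part of cell type in the allele shares was not tested.

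Both alleles were compared within each library by edgeR's quasi-likelihood test with Benjamini-Hochberg adjustment over all 10345 genes, and a gene was called at an adjusted p of 0.05. In all 35.9% of tested genes were called, 20.5% with B6 higher and 15.4% with JF1 higher, and 43.1% had an unadjusted p under 0.05. Among the included genes 3628 were called (47.6%), and since they were chosen by the same read bases nothing is read from that share. Of the called genes 2089 had B6 higher and 1539 had JF1 higher. With each allele scaled separately the split was 1782 and 1833, so the B6 excess depended on the scaling. DESeq2 called 1562 genes by the same rule, and 2412 were called after all counts were divided by 3, a step that allows for reads covering several strain differences. Most of the biases were small. The median absolute log2 ratio of B6 over JF1 was 0.50, and 69.2% of the called B6-higher genes and 67.8% of the called JF1-higher genes lay within 10 percentage points of 50% in at least 1 cross. At least 10 points in both crosses were reached by 644 B6-higher and 495 JF1-higher genes, and at least 40 points by 47 and 63 genes. Genes at least 40 points from 50% in both crosses are called near-complete here. A parental term was called in 62 included genes (0.813%) and in 122 of the genes not on the same side (4.49%), a contrast that the choice of genes by side sets.

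**Figure D1:**
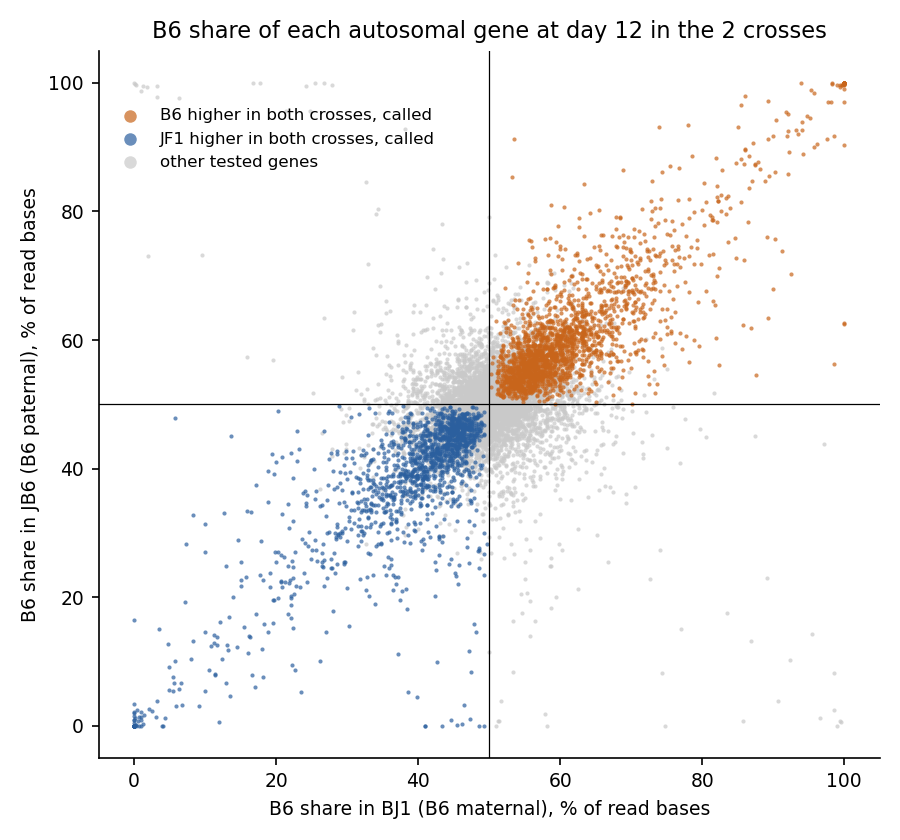
B6 share of each tested autosomal gene in the BJ1 cross (horizontal axis, B6 maternal) and in the JB6 cross (vertical axis, B6 paternal), as a percentage of read bases at day 12. The 7628 included genes fill the lower left and upper right quadrants, most of them near 50%, and the near-complete genes sit in the 2 far corners.

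The near-complete B6 genes farthest from 50%, with at least 100 read bases, are described first. H3f3a, which encodes the histone variant H3.3, had a B6 share of 100% in each of the 4 libraries when rounded. Hmgn2, a nucleosome-binding protein gene, had 100%, 100%, 99.9% and 100%, and Hspa8, the constitutive heat shock chaperone, had 100%, 99.8%, 100% and 100%. The JF1 allele of these genes was thus read almost nowhere. Cdc26, a subunit of the anaphase-promoting complex, had 795 read bases over the 4 libraries and none from JF1, which allows a JF1 share of up to 0.377% and makes B6 at least 265-fold higher with a floor of 3 read bases over the 4 libraries. Scoc, a short coiled-coil protein gene, had 0 of 1072 read bases from JF1 (up to 0.28%, at least 357-fold), and Gabarapl2, an autophagy gene, had 0 of 455 (up to 0.659%, at least 152-fold). These limits cover counting error only, and several read bases can come from 1 read. Rpl15 of the large ribosomal subunit, Cycs (cytochrome c), Sumo2 (a ubiquitin-like modifier), Nhp2l1 (a small nucleolar ribonucleoprotein component) and Npm3 (a nucleophosmin family gene) had mean B6 shares between 99.9% and 100%. Cdc26, Hspa8 and Rpl15 each rested on 1 strain difference.

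A near-identical copy was counted where another gene or pseudogene had a transcript with at least 95% identity over at least 100 bases, in the GENCODE annotation of GRCm38. Such a copy was found for 27 of 36 near-complete B6 genes with a transcript (75%), for 14 of 35 B6-higher genes at 30 to 40 points (40%), for 26 of 93 at 20 to 30 points (28%) and for 87 of 443 at 10 to 20 points (19.6%), against 1769 of all 10176 tested genes with a transcript (17.4%). H3f3a had 18 such copies, Hmgn2 13, Hspa8 10, Sumo2 12 and Cycs 51. Pseudogenes made up 17, 11, 9 and 11 of the first 4 numbers, but only 3 of the 51 for Cycs. The aligned stretch may be a small part of a transcript, so such a copy need not be a copy of the whole gene. The more complete the B6 bias, the larger was the share of genes with a copy. How reads were divided between copies was not tested.

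Near-complete B6 bias was found in most of these genes in libraries outside the comparison. Of those measured, 35 of 39 genes were at least 40 points towards B6 in ESCs, 39 of 42 at day 21, 30 of 35 at E13.5, with 31 of 36 in P0 cortex. A difference from day 12 was called in 6 of 39 against ESCs (background 21.5%), in 0 of 42 against day 21 (2.26%), in 9 of 35 against E13.5 (16.1%) and in 10 of 36 against P0 (20.8%). The day 12 libraries that enter these contrasts also chose the genes. The exceptions at E13.5 included Zfp317, a zinc finger gene with no near-identical copy. Its B6 share at day 12 was 91.8% and 91.9% in BJ1 and 97.3% and 93.5% in JB6, and it averaged 54.7% ± 4.91 at E13.5 (SD, n = 6) and 55.1% ± 2.44 at P0 (SD, n = 7). All 4 cultures were far above the cortex means. The B6 over JF1 log2 ratio was 3.58 ± 0.25 (SE) higher at day 12 than at E13.5, with an edgeR adjusted p of 1.48e-15. Ppme1, which encodes a phosphatase methylesterase, showed a difference of similar size from the other side: its B6 share was 16.8% and 24.5% in BJ1 and 26.4% and 18.6% in JB6, against 2.67% ± 2.65 at E13.5 (SD, n = 6). JF1 was higher in all of these libraries and more so in cortex (log2 difference 3.41 ± 0.42 SE, edgeR adjusted p 1.51e-08).

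**Figure D2:**
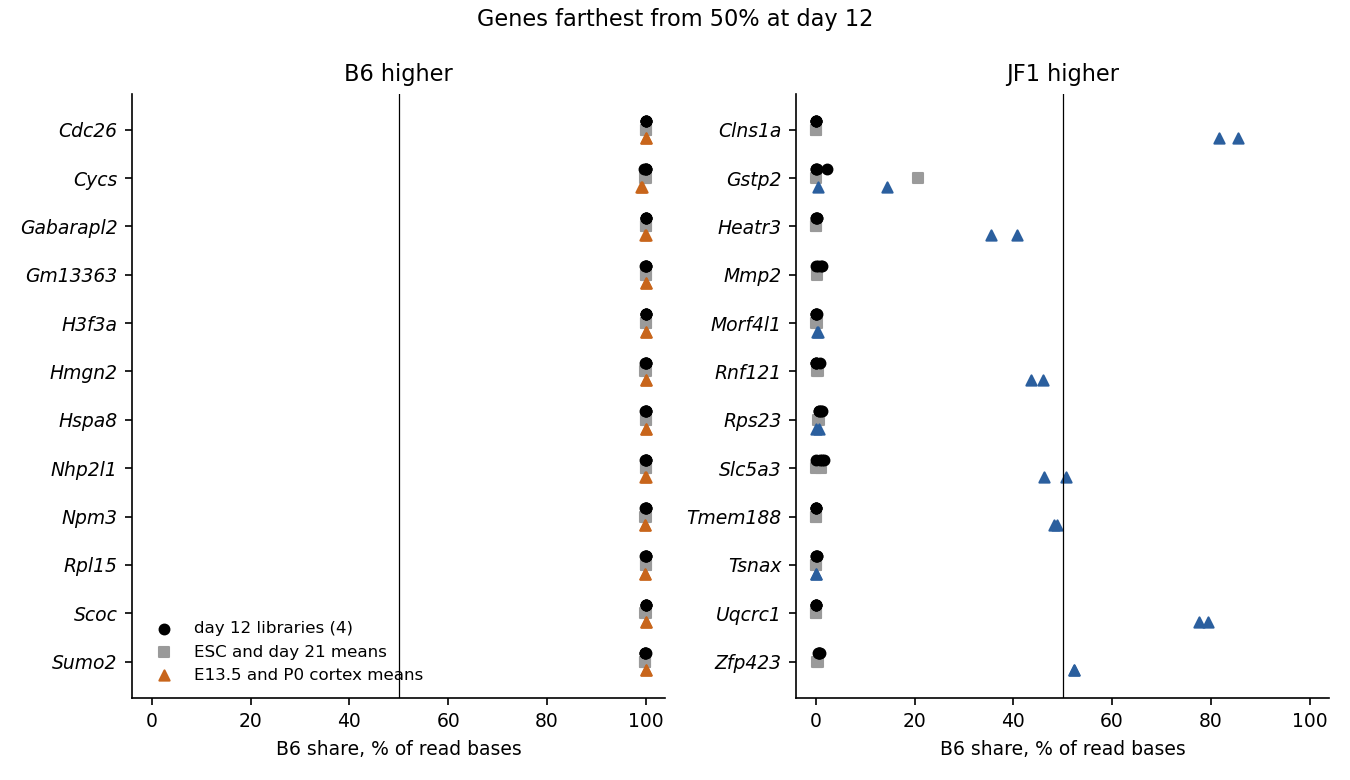
B6 share of the genes farthest from 50% at day 12, 12 with B6 higher and 12 with JF1 higher, as a percentage of read bases. Circles are the 4 day 12 libraries, squares the ESC and day 21 means, and triangles the E13.5 and P0 means. The B6-higher genes lie near 100% in cortex too, whereas several JF1-higher genes, such as Clns1a at 81.6% at E13.5, are far from 0 there.

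Most near-complete JF1 genes that could be measured were near-complete at each culture stage and nearer to balance in cortex. Of those measured, 29 of 32 were at least 40 points towards JF1 in ESCs and 54 of 55 at day 21, but 9 of 49 at E13.5, with 9 of 51 in P0 cortex. Their median B6 share was 0.159% in ESCs, 0.176% at day 21, 50.1% at E13.5, with 50.7% in P0 cortex. Between 35% and 65% B6 at E13.5 were 31 of 49 of them (63.3%), where 94.1% of all genes tested at both stages lay. The difference in strain bias between day 12 and E13.5 was called in 43 of 49, where 16.1% of all genes tested were called, and the difference between day 12 and P0 in 43 of 51, where 20.8% were. Against ESCs it was called in 2 of 32 (background 21.5%), and against day 21 in 0 of 55 (background 2.26%). These 4 contrasts share the day 12 libraries, by which the genes were also chosen.

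Clns1a encodes pICln, a chaperone of small nuclear ribonucleoprotein assembly. All 671 of its read bases at day 12 were from JF1, which allows a B6 share of up to 0.447% and puts B6 at least 224-fold lower. The same gene had a B6 share of 81.6% ± 3.17 at E13.5 (SD, n = 6) and 85.4% ± 4.11 at P0 (SD, n = 7), so the higher allele in cortex was the one not read in culture. Uqcrc1, a core subunit of respiratory complex III, had 0 of 637 read bases from B6 (up to 0.471%, at least 212-fold lower), and its B6 share was 77.6% ± 3.08 at E13.5 (SD, n = 6). Tmem188, a regulatory subunit of a nuclear envelope phosphatase, had 0 of 1068 (up to 0.281%, at least 356-fold lower) and 48.2% ± 1.69 at E13.5 (SD, n = 6). The differences between day 12 and E13.5 had edgeR adjusted p of 3.57e-18 for Clns1a, 4.03e-25 for Uqcrc1 and 3.14e-26 for Tmem188. None of these 3 genes had a near-identical copy. Zfp423, a zinc finger transcription factor gene, had B6 shares of 0.661% and 0.367% in BJ1 and 0.858% and 0.583% in JB6, against 52.3% ± 3.61 at E13.5 (SD, n = 6). Slc5a3, a myo-inositol transporter gene, had 1.25%, 0%, 0.89% and 1.68% at day 12 over 63 strain differences, against 46.2% ± 4.85 at E13.5 (SD, n = 6).

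These genes were not spread evenly over the genome. Of the 63 near-complete JF1 genes 17 lay on chromosome 7 (27%) and 12 on chromosome 8 (19%), chromosomes that held 8.13% and 3.29% of the tested genes. In gene order (RefSeq, GRCm38), 4 runs of at least 3 neighbouring tested genes were under 20% B6 in both crosses, with 22 genes in all. This definition was chosen after the values were seen. No run of the mirrored kind, above 80% B6, was found. On chromosome 8 the run held Cbln1, Gm2694, Zfp423, Tmem188, Heatr3, Papd5, Mmp2, Lpcat2 and Slc6a2, between N4bp1 at 49.2% and Kifc3 at 46.8%. On chromosome 16 it held Olig2 and Olig1 (transcription factors of the oligodendrocyte lineage), Ifnar2 (an interferon receptor subunit), Itsn1 and Slc5a3, between Urb1 at 51.9% and Fam165b at 22.9%. On chromosome 7 one run held Rsf1, Clns1a, Myo7a, Lrrc32 and Dgat2, between Nars2 at 23% and Mtap6 at 28.1%. The other held Rps3, Neu3 and Rnf169, between Gdpd5 at 82.4% and Pold3 at 53%. The change from balance to near-complete JF1 was thus abrupt at both edges of the chromosome 8 run but not around Rsf1 to Dgat2, whose flanks also favoured JF1.

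In cortex these genes were not near-complete for JF1. All 15 run genes measured at E13.5 had a B6 share above 35%, from 35.4% to 97.1% with a median of 58.2%, and all 18 measured at P0 lay between 35.7% and 96%. Each of these 15 and 18 genes was called for a difference from day 12, where 16.1% and 20.8% of all tested genes were. The runs were picked by the day 12 shares that enter these contrasts, so nothing is read from this. Of the 21 run genes with a transcript 17 had no near-identical copy. The authors' readme states that the B6 genome of the cultured cells had traces of CBA and, more rarely, DBA sequence, and that strain differences at which JF1 carries the CBA or DBA letter were removed for this reason, using pooled culture libraries. Whether the runs are remaining stretches of this kind was not tested.

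**Figure D3:**
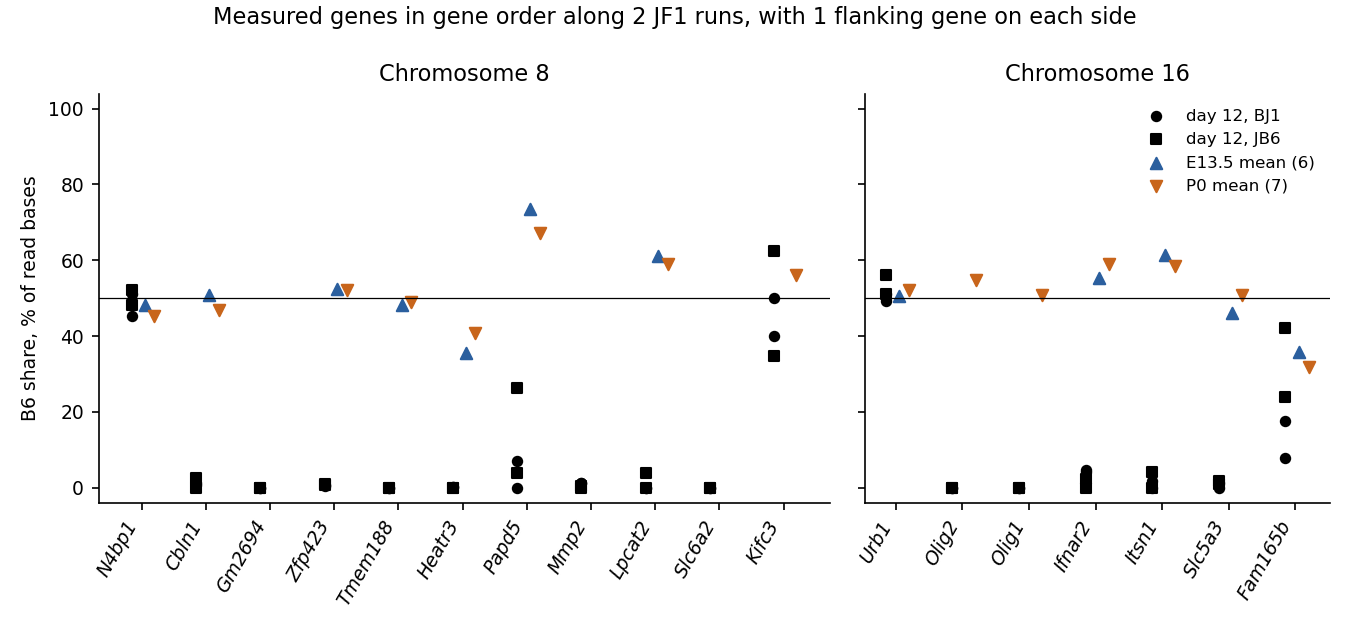
B6 share of neighbouring tested genes along the runs on chromosomes 8 and 16, with the flanking gene at each side, as a percentage of read bases at day 12 and in cortex. Black marks are the day 12 libraries and triangles the E13.5 and P0 means. Day 12 shares are near 0 inside the runs, apart from Papd5 at 26.4% in 1 JB6 library, whereas the cortex means of the same genes lie between 35.4% and 73.4%.

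A smaller group of JF1-higher genes was near-complete in culture and in cortex alike. Tsnax, which encodes the partner of translin, had B6 shares of 0.24% and 0.225% in BJ1 and 0% and 0.107% in JB6, and 0.0645% ± 0.0718 at E13.5 (SD, n = 6). Morf4l1, a chromatin protein gene, had 0%, 0.241%, 0% and 0.0894% at day 12 and 0.504% ± 0.309 at E13.5 (SD, n = 6). Rps23 of the small ribosomal subunit averaged 0.902% ± 0.313 at day 12 (SD, n = 4) and 0.128% ± 0.314 at E13.5 (SD, n = 6). The 3 genes were near 0 in all of these samples. They had 1, 34 and 14 near-identical copies, of which 1, 5 and 11 were pseudogenes. Rps23 rested on 1 strain difference. Of the near-complete JF1 genes with a copy 6 of 14 measured stayed near-complete at E13.5, against 0 of 31 without a copy.

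Genes with no near-identical copy were also compared between culture and cortex. Among called genes with no copy, at least 5 strain differences, at least 100 read bases, at least 10 points in both crosses, the same side in all 4 libraries, and values at E13.5 and P0, 195 had B6 higher and 118 had JF1 higher. At least 10 points the same way at both E13.5 and P0 were found for 88 of the 195 and for 23 of the 118. This set of conditions was also chosen after the values were seen. The genes named here and on the JF1 side were ranked by their day 12, E13.5 and P0 shares together. Their side in cortex was thus fixed by the pick. Mrpl9, a mitochondrial ribosomal protein gene, had B6 shares of 82.5% and 81.6% in BJ1 and 79.9% and 84.5% in JB6 (log2 ratio 2.22 ± 0.09 SE, edgeR adjusted p 5.27e-128), and its mean was 77% in ESCs, 81.1% at day 21, 75.8% at E13.5, with 74.6% in P0 cortex. Rbm15b, a subunit of the RNA m6A methyltransferase complex, had 86.4%, 85.7%, 89.6% and 89.4% (2.85 ± 0.13 SE, edgeR adjusted p 3.83e-105) and 82.6% at E13.5. All 4 day 12 libraries of both genes favoured B6 by a wide margin. Rbm15b averaged 79.6% at P0, a called difference from day 12 (log2 0.87 ± 0.27 SE, edgeR adjusted p 0.0224). Sys1, a Golgi protein gene, averaged 80% ± 1.83 at day 12 (SD, n = 4) and 76.4% at E13.5. Psmc5, an ATPase subunit of the proteasome, averaged 73.2% ± 4.02 (SD, n = 4) and 71.1% at E13.5.

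On the JF1 side, Dpysl2, a microtubule-binding protein gene of growing axons, had B6 shares of 20.5% and 21.9% in BJ1 and 22.2% and 22.5% in JB6. Its log2 ratio was -1.84 ± 0.07 (SE, edgeR adjusted p 1.42e-150), and its mean B6 share was 22.8% in ESCs, 23.3% at day 21, 23.9% at E13.5, with 25.2% in P0 cortex. The stage means were thus close to each other, although the difference from P0 was called (log2 -0.28 ± 0.07 SE, edgeR adjusted p 0.00289). Lbp, the lipopolysaccharide-binding protein gene, had 6.65%, 6.59%, 7.29% and 6.05% at day 12 and 13.8% ± 7.65 at E13.5 (SD, n = 6), a called difference (log2 -1.43 ± 0.32 SE, edgeR adjusted p 0.00107). Gstm4, a glutathione transferase gene, had 29.1%, 28.3%, 29.9% and 29.5% at day 12 and 27.8% at E13.5. Isoc2b averaged 6.53% ± 1.92 at day 12 (SD, n = 4) and 20.4% at E13.5, which also differed (log2 -1.97 ± 0.43 SE, edgeR adjusted p 0.000666). Lbp and Isoc2b are near-complete at day 12 by the 40-point definition.

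**Figure D4:**
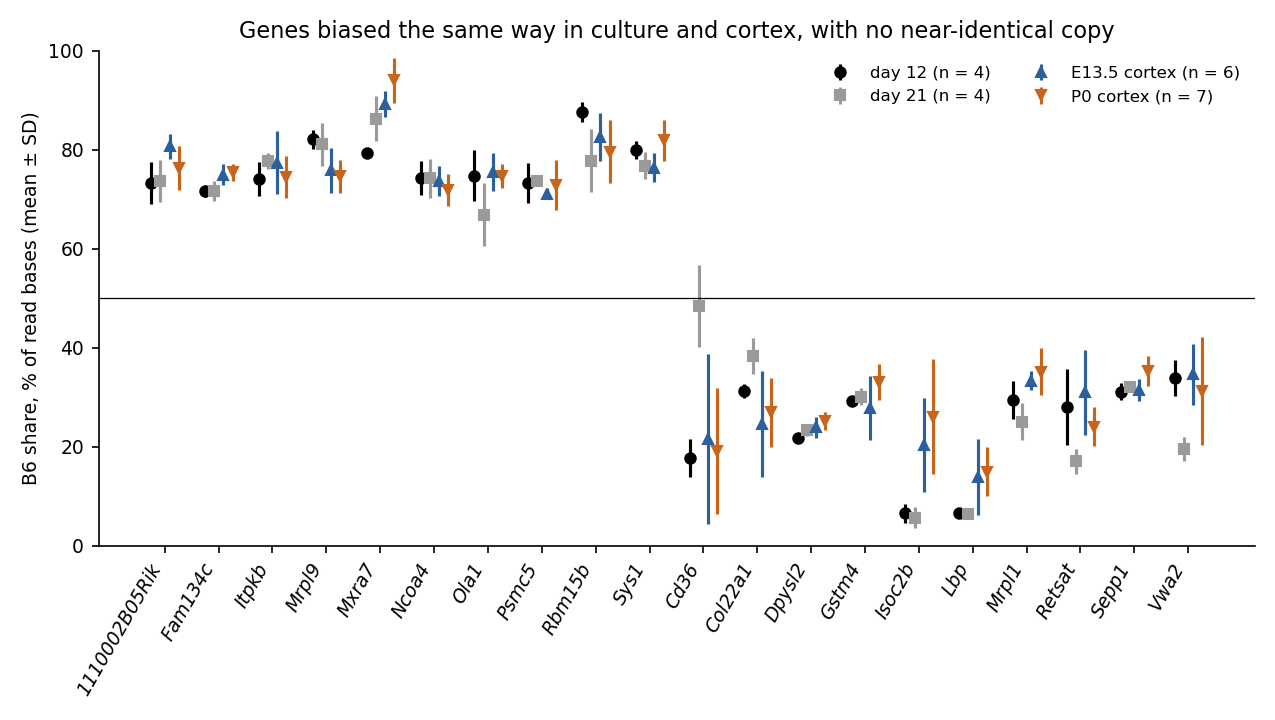
B6 share of 10 B6-higher and 10 JF1-higher genes with no near-identical copy, as the mean and SD of the libraries of each stage in percent of read bases. At day 12 Rbm15b at 87.7% and Mrpl9 at 82.1% are among the highest B6 means and Lbp at 6.65% is among the lowest, and the side at E13.5 and P0 is fixed by how the genes were picked. At day 21 Cd36 lies at 48.5%.

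Among strain alleles known from B6 or JF1 mice, Ednrb stood out. It encodes the endothelin receptor B, and JF1 carries its piebald allele, which is known to lower the receptor's expression and gives the strain its white spotting. The B6 share was 92.7% and 83.5% in BJ1 and 88.2% and 85% in JB6, so all 4 libraries favoured B6 (log2 ratio 2.70 ± 0.13 SE, edgeR adjusted p 3.3e-89). Its mean was 79% at day 21, 68% at E13.5, with 64.3% in P0 cortex, and the log2 ratio at day 12 was 1.60 ± 0.17 (SE) higher than at E13.5 (edgeR adjusted p 5.63e-10). Nnt, a mitochondrial transhydrogenase gene altered in C57BL/6J, had 68.2%, 48.4%, 51.4% and 53.6%, which did not pass the test (log2 ratio 0.30 ± 0.14 SE, edgeR adjusted p 0.0779). The first BJ1 library was above the other 3, which were near 50%. In cortex Nnt averaged 38.6% ± 3.28 at E13.5 (SD, n = 6) and 53.7% at P0. Its log2 ratio at day 12 was 0.96 ± 0.16 (SE) higher than at E13.5 (edgeR adjusted p 1.72e-05).

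Among called genes at 10 points or more, the 5 most abundant per direction are given next. Actg1, cytoplasmic gamma-actin, had B6 shares of 87.5%, 87.3%, 87.4% and 87.4% at day 12 and 86.8% at E13.5, with 6 near-identical copies. Gapdh, a glycolytic enzyme gene, had 10.8%, 13.9%, 10.3% and 10.3% at day 12 and 12.4% at E13.5, with 144 copies. Both alleles were read in every library. The second BJ1 library stood above the other 3 for Gapdh, and stage differences from ESCs were called for both genes (ESC means 84.9% for Actg1 and 12.9% for Gapdh, edgeR adjusted p 0.022 and 0.00297), with one from E13.5 for Gapdh too (edgeR adjusted p 0.0431). Pgam1 of glycolysis averaged 67.3% ± 0.532 (SD, n = 4), Rps19 62.8% ± 1.9 and Rpl14 61.2% ± 0.629. They had 1, 9 and 1 near-identical copies. Rps19 had 65% and 63.8% in BJ1 and 61.6% and 60.9% in JB6, and its parental term was called (edgeR adjusted p 0.00135). On the JF1 side Ifitm3, an interferon-induced membrane protein gene with no copy, had 37.8%, 34.1%, 38.6% and 35.8%, Atp5h of the ATP synthase averaged 35.9% ± 0.832, and the tetraspanin gene Cd151 averaged 38.5% ± 1.7 (SD, n = 4 each). Cox7a2l, a factor of respiratory supercomplex assembly, had 38.4%, 37.5%, 37.1% and 37.3% at day 12 but 51.3% ± 1.09 at E13.5 (SD, n = 6), a log2 difference of -0.81 ± 0.05 (SE, edgeR adjusted p 6.82e-17). Atp5h had 4 near-identical copies, Cox7a2l 1 and Cd151 0.

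Gene groups differed in how many members were called, read against 35.1% for all tested genes, whose median log2 ratio was 0.04 and median absolute log2 ratio 0.22. Of 54 cytoplasmic ribosomal protein genes 24 had B6 higher and 20 JF1 higher (81.5% called), with a median log2 ratio of 0.02. Rps6 averaged 81.9% B6 and Rpl37a 94.9%, whereas Rplp1 averaged 41.8%. Rps6 had 10 near-identical copies, Rpl37a 5 and Rplp1 3. The ribosomal genes thus moved both ways, and they are among the most deeply covered. Of 56 nuclear respiratory chain genes 12 were B6-higher and 18 JF1-higher, and Sdha of complex II averaged 58.9%. Of 16 glycolysis genes 2 were B6-higher and 8 JF1-higher (median log2 ratio -0.10). Among the latter were Eno1 at 39.3% ± 1.79, with 3 near-identical copies, and the neuronal enolase Eno2 at 26.9% ± 7.27 (SD, n = 4 each). Eno2 had 34.8% and 30.5% in BJ1 and 18.2% and 24% in JB6, and its parental term was called (edgeR adjusted p 0.000322). Of 16 cholesterol synthesis genes 1 was B6-higher and 8 JF1-higher (median -0.13). The B6-higher one was Idi1, an isomerase of the mevalonate pathway, at 93% ± 2.39 (SD, n = 4), with 2 near-identical copies. Mvk and Mvd, earlier enzymes of that pathway, averaged 43.4% and 44.3%.

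Of 31 cell cycle genes 12 were B6-higher and 5 JF1-higher (median 0.09), with Ccnd2 (cyclin D2) at 61.8% ± 0.937, Cdc25b (a phosphatase that activates cyclin-dependent kinases) at 63.1% ± 1.75 and the tumour suppressor Rb1 at 66.6% ± 2.95 (SD, n = 4 each). Of 30 chromatin protein genes 8 were called each way, and the DNA methyltransferase gene Dnmt3b averaged 38.4% ± 5.63 (SD, n = 4). Of 27 antigen presentation and interferon response genes 6 were B6-higher and 9 JF1-higher, with Bst2 (tetherin) at 69.9% and the antiviral gene Oas1a at 33.2%. H2-T23, a non-classical major histocompatibility gene, averaged 23.3% at day 12 and 60.3% ± 15.1 at E13.5 (SD, n = 6). It had 52 near-identical copies, 5 of them pseudogenes. Of 21 glutathione and detoxification genes 5 were called each way, and of 27 proteasome genes 7 were B6-higher and 4 JF1-higher.

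Of 35 Wnt and Notch pathway genes 6 were B6-higher and 2 JF1-higher (22.9% called). Among them the Wnt antagonist Dkk1 averaged 71.6% and the Wnt receptor Fzd5 73%, and Dkk3 averaged 25.7% at day 12 against 64.4% at E13.5. Of 13 Hedgehog pathway genes 2 were B6-higher and 1 JF1-higher, with the co-receptor Cdon at 57.6% and the acyltransferase Hhat at 37.9%. Cdon was at 44.7% and Hhat at 35.1% at E13.5. Of 29 axon guidance and adhesion genes 4 were B6-higher, among them the semaphorin receptor Plxna2 at 61.6%, and 6 JF1-higher, among them the Slit receptor Robo2 at 40.3%. Of 16 dorsal telencephalic progenitor genes 3 were B6-higher and 0 JF1-higher (18.8% called, median log2 ratio 0.04). The 3 were Nes (nestin) at 62.3%, Hopx at 59.6% and Fabp7 at 58%. At E13.5 Nes was at 64.8%, but Hopx was at 39% and Fabp7 at 44.3%, both with called differences from day 12. With DESeq2, Hopx (adjusted p 0.12) and Fabp7 (adjusted p 0.15) were not called. Of 226 Zfp zinc finger genes 33 were B6-higher and 23 JF1-higher (24.8% called). Of 46 known imprinted genes 8 were on the same side in both crosses, 3 called with B6 higher and 2 with JF1 higher, and 37 were called for the parental term. These lists differ in read depth, which bears on how many genes can pass the test.

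Across the whole set, bias at day 12 was closest to that at day 21. Of the called genes tested there, 93.2% of 3552 were on the same side at day 21 and 66% were also called, where 34.4% of all genes were called at that stage. In ESCs 82.7% of 3013 were on the same side and 58.1% were also called (44.6% of all genes called), at E13.5 83.8% of 3221 and 61.8% (45.9%), and at P0 79.9% of 3252 and 57.5% (48.2%). Called the opposite way were 0.76% at day 21, 5.64% in ESCs, 5.96% at E13.5 and 7.96% at P0. At E13.5 the B6-higher genes were on the same side in 87.9% and the JF1-higher genes in 78.2%. The Pearson correlation of the mean B6 share with day 12 across these genes was 0.921 at day 21, 0.795 in ESCs, 0.676 at E13.5 and 0.618 at P0. It is given as a description, since genes are not independent replicates.

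**Figure D5:**
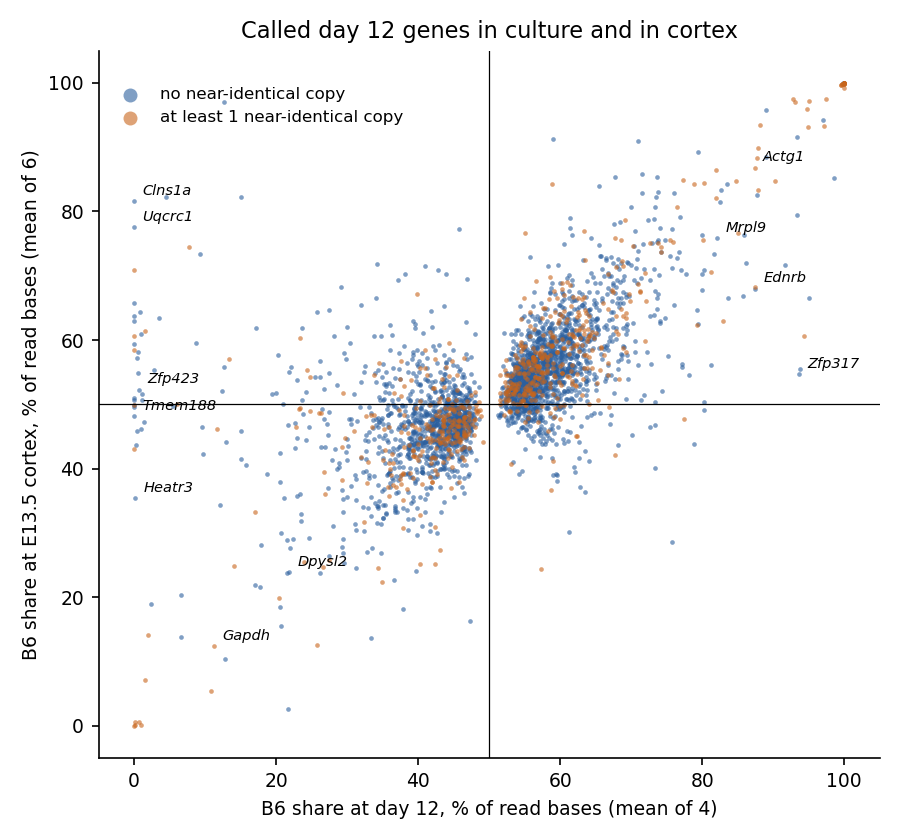
B6 share of the called day 12 genes in culture (horizontal axis, mean of 4 libraries) and in dorsal telencephalon at E13.5 (vertical axis, mean of 6 libraries), as a percentage of read bases. Most genes lie near the centre, and a column of genes near 0 at day 12 spreads upwards, with the near-complete JF1 genes between 0% and 82.2% at E13.5. Genes without a GENCODE transcript are not drawn.

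Tested as a difference of strain bias, 865 of 3015 called genes (28.7%) differed between day 12 and ESCs, where 21.5% of all tested genes did. Against day 21 it was 166 of 3552 (4.67%, all tested genes 2.26%), against E13.5 886 of 3227 (27.5%, 16.1%), and against P0 1144 of 3252 (35.2%, 20.8%). The called genes were chosen by the day 12 libraries that enter each contrast, so nothing is read from their higher shares. Against ESCs, Tpbg, which encodes a Wnt-modulating membrane glycoprotein, had a B6 share of 40.9%, 48.2%, 47.2% and 46.5% at day 12 and 2.76% ± 0.429 in ESCs (SD, n = 4). The day 12 libraries were all near balance and the ESC libraries all near JF1 (log2 difference 4.88 ± 0.18 SE, edgeR adjusted p 3.36e-26). Notum, a secreted Wnt deacylase gene, had 60.5%, 56.8%, 66.2% and 51.4% at day 12 and 91.7% ± 4.34 in ESCs (SD, n = 4; log2 difference -3.01 ± 0.35 SE, edgeR adjusted p 5.04e-08). Against day 21, Pttg1 (securin, an inhibitor of sister chromatid separation) had 31.7%, 35%, 33.6% and 33% at day 12. Its mean was 62.7% ± 5.56 at day 21 (SD, n = 4), a log2 difference of -1.73 ± 0.11 (SE, edgeR adjusted p 1.61e-11). Its alleles were thus ordered oppositely at these culture stages. Fxyd3, a regulator of the sodium pump, had 90.6%, 87.1%, 89.3% and 80.3% at day 12 and 61.5% ± 2.07 at day 21 (SD, n = 4; log2 difference 2.06 ± 0.18 SE, edgeR adjusted p 2.81e-09). In bulk cultures, a change of allele share within a cell type and a change in which cells express the gene cannot be told apart. The B6 parents of culture and cortex also differed in background. In contrasts of day 12 with E13.5 or P0, stage, tissue and that background cannot be told apart.

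Genes at the edge of the floor were few-base cases. Just below it, at a mean of 19.8 read bases, lay 9330182L06Rik, AW549542 and Akr1e1, and just at it, at 20, lay 4930405A21Rik, Cdx2 and D330050I16Rik. The median tested gene had 209 read bases per library over 11 strain differences, and 78 called genes (2.15%) rested on 1 strain difference, as did 2.51% of all tested genes. The share was larger among near-complete genes, at 6 of 47 B6-higher (12.8%) and 6 of 63 JF1-higher genes (9.52%). Cdc26, Hspa8, Rpl15, Rps23 and Mmp2 were among these.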

How the data were processed

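The deposited tables held read bases per gene and allele as raw counts, together with the number of strain differences covered, made by the authors with SAMtools mpileup 0.1.18 from sense-strand reads on mm9, per the authors' readme. Novoalign, HTSeq, CASAVA 1.8.2 and edgeR are named in the labels and the submitters' processing notes. 1 read can cover several strain differences, so counts are not independent molecules. Intervals, floors and limits cover counting error only.

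Autosomal genes that averaged 20 or more read bases were fitted with edgeR 4.0.16 (R 4.3.3) by the robust quasi-likelihood test on 2 columns per library, B6 and JF1, with equal library size and terms for library and parent of origin. Stage differences came from 1 fit of the 25 hybrid libraries, as day 12 minus the other stage. limma 3.58.1 (with 0.5 added) and DESeq2 1.42.0 were alternatives. Copies were counted with BLAST 2.17.0 on GENCODE M21, and gene order came from RefSeq on GRCm38.p6, which is not the build of the files, so no coordinates are given. The fits were tested on simulated data. Total read bases per day 12 library ranged from 5266834 to 8618253.

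Named genes were the 12 per direction farthest from 50% in both crosses with at least 100 read bases, up to 3 per direction from each gene list, all tested known strain alleles, the 5 most abundant per direction at 10 points or more, and up to 4 per direction and stage difference. Genes biased alike in culture and cortex, and the run genes, were picked afterwards. Genes and lists were chosen with earlier results of these data known. Some alternatives were also added after seeing the data. Libraries of the E14 line, which is not a hybrid, were not analysed here. A few of the selected genes are not reported here.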

Additional observations from a re-analysis of the deposited data

Results flagged for a closer look

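Stage differences of strain bias are given as the log2 ratio of B6 over JF1 at day 12 minus that at the other stage, each past an edgeR adjusted p of 0.05. Against ESCs the named genes were Tpbg at 4.88, 4930583H14Rik at 4.69, Pigp at 4.24, Zc3hav1 at 3.35, Gstp2 at -4.80, Vill at -3.06, Notum at -3.01 and Ank at -2.86. The Gstp2 value rests on ESC libraries that spread widely (20.7% ± 25.6 B6, SD, n = 4). Tpbg, 4930583H14Rik and Pigp were under 5% B6 in ESCs and between 43.8% and 47.6% at day 12.

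Against day 21 they were Fxyd3 at 2.06, Gm266 at 1.45, Gstm7 at 1.29, C130074G19Rik at 1.06, Pttg1 at -1.73, Stap2 at -1.44, Kif19a at -1.40 and Tpbpb at -1.30.

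Against E13.5 they were Zfp317 at 3.58, Ppme1 at 3.41, Rps23 at 2.68, Hddc3 at 2.19, Clns1a at -12.50, Uqcrc1 at -12.11, Tmem188 at -10.87 and Heatr3 at -9.41. Against P0 they were Zfp317 at 3.56, Ppme1 at 3.28, Cycs at 3.15, Hddc3 at 2.32, Clns1a at -12.90, Uqcrc1 at -12.25, Tmem188 at -10.91 and Heatr3 at -9.74. Fitted values of genes with an allele at 0 depend on the prior count and are no bound. Rps23 and Cycs were near-complete at both stages and differed by about a percentage point.

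In 10 of 55 named genes, 1 of the 4 day 12 libraries lay apart from the other 3. The 55 include genes with the same share in all 4 libraries, such as Cdc26, which could not be flagged. In Gm13363 and Rnf121, among others, 1 read base of the rarer allele set the flag. The usual rate of about 1 in 20 does not apply to such counts, so the number is not compared with it. By B6 share of that library these were Gm13363 (99.8%, JB6 replicate 2), Hspa8 (99.8%, BJ1 replicate 2), Npm3 (99.8%, BJ1 replicate 1), Rnf121 (0.8%, JB6 replicate 1), Cycs (99.7%, JB6 replicate 2), Cd36 (11.9%, JB6 replicate 1), Fam134c (73.5%, BJ1 replicate 1), H3f3a (100% when rounded, JB6 replicate 1), Gstp2 (2.33%, JB6 replicate 1) and Gapdh (13.9%, BJ1 replicate 2). The gaps were small except in Cd36, whose other libraries were at 19.4% to 20%, and in Gapdh, at 10.3% to 10.8%.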

How the results depend on the processing

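The number of called genes with the same side in both crosses was 3628 (2089 B6-higher and 1539 JF1-higher). It was 1562 (834 and 728) with DESeq2 size factors and its Wald test, 2412 (1451 and 961) with all counts divided by 3, and 1139 (644 and 495) with at least 10 points in both crosses. Leaving out 1 library at a time gave 2551 to 2911 in all, 1507 to 1713 B6-higher and 1044 to 1200 JF1-higher. With the replicate number as a block it was 2302 (1368 and 934), but the labels do not tie the numbers to shared cultures and same-numbered libraries did not deviate together (correlation -0.012 over 7345 genes). Scaling each allele separately gave 1782 B6-higher and 1833 JF1-higher, so the larger side changed. The count stayed within 1.5 times under limma, another floor on read bases, that scaling, and without chromosome 17. It also did so without copies and without the run genes, both chosen after seeing the data. Among all included genes the stage differences numbered 1422 against ESCs, 200 against day 21, 1240 against E13.5 and 1586 against P0, and dividing counts by 3 lowered them to 740 against ESCs (341 more B6, 399 more JF1), 82 against day 21 (40 and 42), 564 against E13.5 (223 and 341) and 754 against P0 (318 and 436). Leaving out 1 day 12 library gave 63 to 74 genes more JF1 than at day 21, against 99 with all libraries, with the lowest number without BJ1 replicate 2, and a floor of 100 gave 448 more JF1 than at E13.5. Of the 147 named strain biases 119 kept their call under every alternative in which they were tested. Alternatives that changed only the rule on sides or points left the log2 ratio and adjusted p as they were, so no call could be lost there. Of 32 named stage differences 29 kept theirs, and Rps23, Gstp2 and Cycs lost it under some. The causes were not tested. Depth limits the rest: the median gene had 209 read bases per library.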
